A study of Mus musculus with 24 samples.

Results

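Healthy quadriceps, the large muscle at the front of the thigh, was compared between 2 weeks and 5 days after birth in BL10 mice, the strain that served as the control for mdx. The comparison was chosen from the sample titles, with earlier results of these data known. It uses 6 of the 24 arrays of the study: 3 BL10 arrays at 5 days and 3 BL10 arrays at 2 weeks. The rest of the study holds BL10 at 3 weeks and 6 weeks and mdx, which carries a nonsense mutation in the dystrophin gene Dmd, at all 4 ages, with 3 arrays a group. Total RNA of whole muscle was labelled with biotin and hybridised to Affymetrix whole-genome mouse arrays. Neither age group carried a treatment or a transgene. The labels call the arrays of a group biological replicates, but give neither the sex of the animals nor the number of animals behind an array. Each p-value therefore sets a difference against the spread between samples, not between a known number of animals. That spread was pooled within the 8 groups over all 24 arrays, mdx included. Every level below is log2 of the normalized probe set intensity plus 16, on which the lowest possible value is 4, and every difference is 2 weeks minus 5 days on that log2 scale, with its standard error (SE). A gene was called higher or lower when its adjusted p from limma was under 0.05.

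Mouse muscle is built before birth but matures after it. In the first weeks of life fibres grow, and embryonic and neonatal myosins give way to adult fast myosins. Each fibre loses all but 1 of its nerve inputs while its acetylcholine receptor exchanges a fetal subunit for an adult one. Genes that drive fetal growth, many of them imprinted, are turned down in many organs over the same period. The surrounding matrix, the fat and the blood supply change as well, and RNA of whole muscle holds all of these.

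Some arrays stood apart. Replicate 1 at 2 weeks had the lowest mean intensity of the 6 arrays, 234 against 254 to 293, and a Dmd level of 9.18 against 10.03 and 10.08 in the other 2-week arrays. It was also the only one of the 6 whose Gapdh and actin control probe sets read higher at the 3' end than at the 5' end, by 0.13 and 0.11 on the log2 scale. In replicate 1 at 5 days Xist, which females express, lay at 11.65 and Eif2s3y, a gene of the Y chromosome, at the floor of 4; in the other 5 arrays Eif2s3y lay between 7.41 and 9.37. Arrays within an age correlated at 0.984 to 0.991 over genes at 5 days and at 0.942 to 0.965 at 2 weeks, so the older group was the more variable. In 5 arrays outside these groups (replicate 3 of mdx at 2 weeks, replicate 2 of BL10 at 3 weeks and all 3 of mdx at 6 weeks) the Dmd level went against the label. They entered the fit through the spread it pools, and they also took part in the normalization, the choice of probe sets and the filter. With these 5 arrays left out of the fit alone 2149 genes were called. Xist in replicate 2 at 5 days, at 6.58, also lay above the 4.83 to 5.15 of the remaining 4 arrays. Age, sex and any difference in RNA quality cannot be fully told apart, and calls are therefore given also with 1 array left out at a time. Dmd itself did not pass the test: it lay at 9.87, 10.02 and 10.02 at 5 days, and differed by -0.21 (SE 0.47, adjusted p = 0.81).

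Of 15000 genes tested, 2386 were called (15.9%). At 2 weeks 1503 were higher (10.0%) and 883 were lower (5.89%), and 792 of the calls were at least 2-fold. The share of calls that were higher rested on the scaling: it was 63% after quantile normalization, 49% on the values as deposited (1114 higher and 1159 lower) and 48.6% after median centring (1061 and 1121). The arrays of one age all lay beyond those of the other in 39.6% of the genes. Across the 6 fits that each left out 1 array, 814 of the called genes kept their call every time, 560 higher and 254 lower. Without replicate 1 at 2 weeks 1039 genes were called, and without replicates 1, 2 and 3 at 5 days 1480, 1478 and 1105. The median difference over all genes was 0.05, against which the medians of gene lists below can be read.

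**Figure D1:**
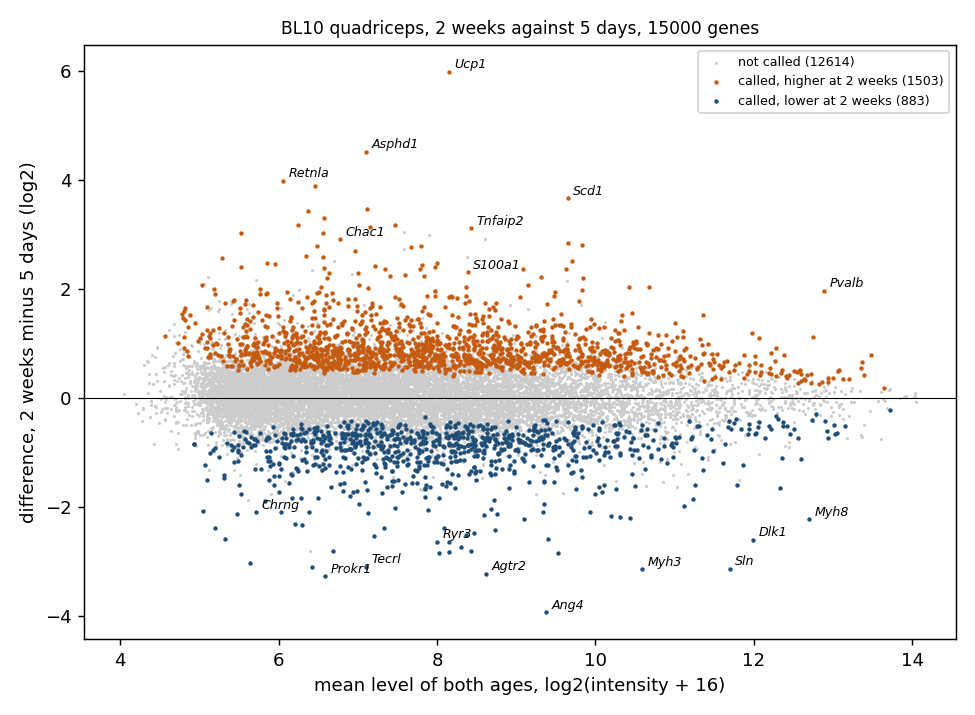
Difference between 2 weeks and 5 days (log2, vertical axis) against the mean level of both ages (log2 of intensity plus 16, horizontal axis) for each of the 15000 genes tested in BL10 quadriceps. Orange points are the 1503 genes called higher at 2 weeks, blue points the 883 called lower and grey points the rest; Ucp1 at 5.98 and Ang4 at -3.93 mark the ends of the range.

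The contractile apparatus gave some of the largest decreases. Embryonic myosin Myh3 lay at 11.96, 12.19 and 12.32 in the 5-day arrays and at 9.23, 9.08 and 8.73 in the 2-week arrays. All 2-week arrays were far below all 5-day arrays, and the difference was -3.14 (SE 0.66, adjusted p = 0.00313), an 8.82-fold lower level. Perinatal myosin Myh8 read 13.71, 13.85 and 13.88, then 11.53, 12.17 and 11.06, a difference of -2.23 (SE 0.59, adjusted p = 0.0144). The atrial and embryonic light chain Myl4 fell by 1.73 (SE 0.51, adjusted p = 0.0243). In the later course Myh3 fell again to 6.1 by 6 weeks, a further -2.91 (adjusted p = 0.00397). The call of Myh3 held with any 1 of the 6 arrays left out, with an adjusted p of at most 0.0192, whereas that of Myh8 was lost without replicate 3 at 5 days or replicate 1 at 2 weeks (adjusted p up to 0.0556) and that of Myl4 in 5 of the 6 fits (up to 0.102).

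The highest level of any tested gene in the 6 arrays was 14.11. Skeletal actin lay between 13.96 and that level, and the adult myosins Myh4 and Myh1 lay between 12.83 and 13.91. Whether a limit of the signal held back a rise was not tested. Myh4, the fast IIb myosin, lay at 13.28, 13.14 and 12.83 at 5 days and at 13.81, 13.91 and 13.88 at 2 weeks. That difference of 0.78 (SE 0.26) passed the test only narrowly, with an adjusted p of 0.0439 that rose to as much as 0.173 when 1 array was left out, and no call remained in any of those 6 fits. The arrays of the ages did not overlap. The fast IIx myosin Myh1 differed by -0.07 (SE 0.3, adjusted p = 0.91) and skeletal actin Acta1 by -0.07 (SE 0.06, adjusted p = 0.468). Myh3 and Myh4 were the only 1 of 28 pairs of an early or general gene and its later or muscle relative in which the early gene fell and the later gene rose. In 6 pairs only the early gene fell, among them Myh8 beside Myh1 and Ryr3 beside Ryr1, and in 1 only the later gene rose. The early or general gene was called higher in 1 pair alone, Actc1 beside Acta1, and in 1 pair together with its relative, Cox7a2 with Cox7a1. In 13 pairs neither was called, and 23 pairs had both genes tested.

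Of the 5' sequence before these 3 myosin genes, which lie in 1 cluster on chromosome 11, the 250 bases up to the transcription start are shown because the embryonic and the perinatal gene fell and the adult gene rose. They are RefSeq sequences of GRCm38.p6, 5' to 3' on the gene's own strand, and capitals mark the E-box CANNTG, the core letters that myogenic basic helix-loop-helix factors bind.
Myh3, chr11:67078050-67078299, plus strand: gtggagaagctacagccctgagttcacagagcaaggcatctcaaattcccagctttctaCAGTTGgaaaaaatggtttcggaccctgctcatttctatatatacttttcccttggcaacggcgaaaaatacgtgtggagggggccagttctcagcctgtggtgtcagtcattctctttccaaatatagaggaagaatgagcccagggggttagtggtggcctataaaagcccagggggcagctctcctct
Myh8, chr11:67276874-67277123, plus strand: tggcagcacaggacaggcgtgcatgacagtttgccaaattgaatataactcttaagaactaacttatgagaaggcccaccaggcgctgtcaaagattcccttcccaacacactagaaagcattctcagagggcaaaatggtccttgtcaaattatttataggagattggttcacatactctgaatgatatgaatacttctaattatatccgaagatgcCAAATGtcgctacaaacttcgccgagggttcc
Myh4, chr11:67237562-67237811, plus strand: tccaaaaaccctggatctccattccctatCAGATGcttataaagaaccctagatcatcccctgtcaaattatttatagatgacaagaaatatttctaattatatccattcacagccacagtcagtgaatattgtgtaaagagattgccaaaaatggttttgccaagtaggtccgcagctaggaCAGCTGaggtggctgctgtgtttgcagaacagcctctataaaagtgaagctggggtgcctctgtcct

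Each of the 3 windows held an E-box: 1 before Myh3, 1 before Myh8 and 2 before Myh4, of which 1 read CAGCTG. The letters TATAAA, searched on both strands, occurred once before Myh3, once before Myh8 and 3 times before Myh4. Such matches are common. CANNTG lay in the same 250 bases of 63.9% of the 12005 tested genes with a promoter entry, CAGCTG, which is itself a CANNTG, in 14.9% and TATAAA in 9.5%. CAGCTG was held by 15% of the genes called higher and 14.8% of those called lower.

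As a list, the 12 developmental contractile genes had 11 members tested, of which 5 were lower (Myh3, Myh8, Myl4, Sln and the intermediate filament Nes) and 2 were higher, with a median of -1.07. That was 45.5% lower and 18.2% higher, against 5.89% and 10.0% of all genes. The higher members were Mybph, a myosin-binding protein, at 9.98, 9.76 and 9.25 and then 11.27, 11.67 and 12.15 (2.03, SE 0.38, adjusted p = 0.00129), and cardiac actin Actc1 (0.66, SE 0.18, adjusted p = 0.0184). With 1 array left out the count of lower members ranged from 2, without replicate 3 at 5 days, to 4.

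Among 23 fast fibre genes 8 were higher (34.8%, against 10.0% of all genes) and none lower. Pvalb, the calcium buffer of fast fibres, read 12.09, 11.77 and 11.87 at 5 days and 13.91, 13.88 and 13.83 at 2 weeks. Its 2-week arrays were all above the 5-day arrays (1.96, SE 0.25, adjusted p = 4.3e-05). From 2 to 6 weeks it differed by -0.09 (adjusted p = 0.843). At 13.83 to 13.91 it already lay near the highest level of any tested gene at 2 weeks, and whether that limited a further rise was not tested. Mybpc2, fast myosin-binding protein C, read 12.38, 12.12 and 12.05 and then 13.01, 13.26 and 13.64 (1.12, SE 0.16, adjusted p = 0.000173). The other called members were Myoz3, Rpl3l, Tmod4, Actn3 and Tpm1, at 0.18 to 1, besides Myh4. Pvalb and Mybpc2 alone kept their call in all 6 fits, the count of the list fell to 2 without replicate 3 at 5 days, and it was also 2 on the values as deposited and after median centring. The median of the list, 0.15, was close to that of all genes.

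No slow fibre gene was higher. Of 15 tested, 2 were lower and kept their call in all 6 fits: Casq2, the calsequestrin of slow and cardiac muscle, at 12.54, 12.59 and 12.63 and then 10.96, 11.1 and 10.92 (-1.59, SE 0.35, adjusted p = 0.00455), and Mybpc1, slow myosin-binding protein C (-1.12, SE 0.2, adjusted p = 0.00119). The median of the list was -1.03, and 13.3% of it was lower, against 5.89% of all genes. Slow troponins Tnni1 (-1.19, SE 0.98, adjusted p = 0.442) and Tnnc1 (-1.18, SE 0.88, adjusted p = 0.393) differed by about as much but with large errors, and in both genes replicate 1 at 2 weeks, at 10.65 and 11.14, was nearer the 5-day arrays than the others were. Among sarcomere scaffold genes 6 of 24 were lower and none higher, led by Xirp1, an actin-binding protein of growing and repairing fibres, at 11.27, 10.93 and 10.4 and then 9.45, 8.92 and 8.96 (-1.76, SE 0.36, adjusted p = 0.00254), and by Lmod2, a thin filament nucleator (-1.46, SE 0.4, adjusted p = 0.0175). Lmod2 was higher again at 6 weeks than at 2 weeks, by 1.83 (adjusted p = 0.00337). The lower scaffold genes were 25% of that list, against 5.89% of all genes. Xirp1 alone kept its call in all 6 fits, and the count of lower members ranged from 1, without replicate 1 or 2 at either age, to 7.

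**Figure D2:**
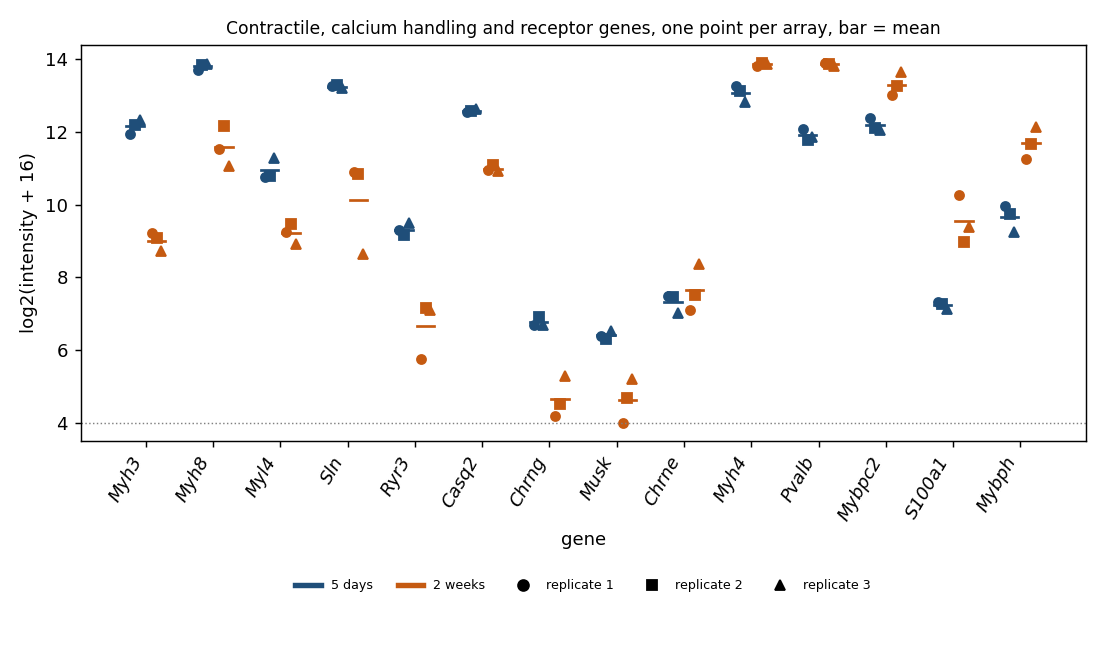
Level of 14 contractile, calcium handling and receptor genes (log2 of intensity plus 16, vertical axis) in each BL10 array, 5 days in blue and 2 weeks in orange, with the marker shape giving the replicate and the bar the mean of 3. Myh3, Ryr3 and Casq2 show no overlap between ages, Sln at 2 weeks spans 8.65 to 10.91, Chrne overlaps, and the dotted line is the floor of 4.

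Calcium handling genes were called in both directions. Sln encodes sarcolipin, a small inhibitor of the sarcoplasmic calcium pump. It read 13.26, 13.3 and 13.2 at 5 days and 10.91, 10.84 and 8.65 at 2 weeks (-3.13, SE 0.81, adjusted p = 0.0119). Both of its probe sets were lower, but the call depended on replicate 3 at 2 weeks, without which the difference was -2.38 and the adjusted p 0.0553. Ryr3, the calcium release channel that immature muscle has beside the adult Ryr1, read 9.3, 9.17 and 9.49 and then 5.76, 7.16 and 7.11 (-2.64, SE 0.42, adjusted p = 0.000321). All 3 of its probe sets were lower, the call held in all 6 fits and the gene fell by a further 2.17 to 6 weeks (adjusted p = 0.00127). Ryr1 differed by -0.01 (SE 0.21, adjusted p = 0.991).

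On the rising side S100a1, a calcium sensor that binds ryanodine receptors, read 7.33, 7.28 and 7.12 and then 10.26, 8.98 and 9.39 (2.3, SE 0.38, adjusted p = 0.000493). Stac3, which couples the voltage sensor to calcium release, read 9.8, 9.82 and 9.6 and then 10.85, 11.09 and 11 (1.24, SE 0.25, adjusted p = 0.00264). In both genes the lowest 2-week array lay above the highest 5-day array. Over the 27 triad and calcium handling genes 4 were higher (14.8%, against 10.0% of all genes) and 5 lower (18.5%, against 5.89%), with a median of 0.02. The other lower members were Casq2, the channel Tmem38b (-0.96, SE 0.17, adjusted p = 0.000914) and the membrane-shaping Bin1 (-0.76, SE 0.21, adjusted p = 0.0203). The calls of S100a1, Stac3, Ryr3, Casq2 and Tmem38b held in all 6 fits.

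At the neuromuscular junction the fetal receptor subunit fell. Chrng, the gamma subunit that fetal acetylcholine receptors carry, read 6.7, 6.92 and 6.68 at 5 days and 4.18, 4.53 and 5.3 at 2 weeks (-2.1, SE 0.49, adjusted p = 0.00658). At 2 weeks 1 array was close to the floor of 4, where the added 16 limits how large a difference can be. The adult epsilon subunit Chrne read 7.49, 7.47 and 7.03 and then 7.11, 7.52 and 8.36; the ages overlapped and the difference was 0.33 (SE 0.35, adjusted p = 0.573). Chrnd, the delta subunit shared by both forms, differed by -0.72 (SE 0.17, adjusted p = 0.00635). Musk, the receptor kinase that gathers acetylcholine receptors, read 6.4, 6.3 and 6.53 and then 4, 4.69 and 5.22 (-1.77, SE 0.52, adjusted p = 0.0255).

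Promoter sequences of the exchanged subunits are shown because the fetal one passed the test and the adult one did not. They are again the 250 bases before the start in GRCm38.p6 from RefSeq, with CANNTG in capitals.
Chrng, chr1:87205561-87205810, plus strand: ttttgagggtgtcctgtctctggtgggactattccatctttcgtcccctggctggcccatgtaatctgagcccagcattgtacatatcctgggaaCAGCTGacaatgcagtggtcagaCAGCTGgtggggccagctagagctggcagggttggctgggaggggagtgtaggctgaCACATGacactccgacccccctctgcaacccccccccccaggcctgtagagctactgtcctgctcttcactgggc
Chrne, chr11:70619195-70619444, minus strand: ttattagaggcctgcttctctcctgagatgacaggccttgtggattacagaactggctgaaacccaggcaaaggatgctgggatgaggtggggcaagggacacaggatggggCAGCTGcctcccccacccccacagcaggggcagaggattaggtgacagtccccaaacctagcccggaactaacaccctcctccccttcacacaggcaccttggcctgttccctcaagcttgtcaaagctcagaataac

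Chrng held 3 E-boxes, 2 of them CAGCTG, and Chrne held 1, which read CAGCTG. The letters CCGGAA, the core of the N-box through which synaptic nuclei are known to respond to nerve signals, were searched on both strands and found once before Chrne and not within the Chrng window; 21.8% of the 12005 genes had them. Over the 22 junction genes 5 were lower (22.7%, against 5.89% of all genes) and none higher, with a median of -0.26. Chrng and the kinase subunit Prkar1a (-0.84, SE 0.19, adjusted p = 0.00536) kept their call in all 6 fits, and Musk lost it in 5 of them (adjusted p up to 0.133); the count ranged from 2, without replicate 3 at 5 days, to 7. The count was 8 lower on the values as deposited.

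Of 25 imprinted genes tested 12 were lower (48%), against 5.89% of all genes, with none higher and a median of -0.75. Dlk1, a membrane protein of immature muscle and fat precursors, read 13.25, 13.22 and 13.39 and then 10.7, 11.01 and 10.36. Its arrays did not overlap, and the difference was -2.6 (SE 0.71, adjusted p = 0.0168). It fell by a further 4.79 to 6 weeks (adjusted p = 0.000166), to a level of 5.9. Zim1 read 7.51, 7.25 and 7.35 and then 4.96, 5.47 and 4.72 (-2.32, SE 0.3, adjusted p = 5.53e-05). Magel2 read 8.29, 8.56 and 8.61 and then 6.73, 6.99 and 5.66 (-2.02, SE 0.44, adjusted p = 0.00442). Mest (-1.85, SE 0.62, adjusted p = 0.0455), Plagl1, a zinc finger factor that regulates other imprinted genes (-1.65, SE 0.5, adjusted p = 0.0282), and Peg3 (-1.24, SE 0.4, adjusted p = 0.0373) were also lower. Their adjusted p-values were larger than those of Dlk1, Zim1 and Magel2. Ppp1r9a, Igf2r, Grb10, Sgce, Usp29 and Gnas completed the 12, at -1.35 to -0.64.

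Igf2, the fetal growth factor of this class, read 13.93, 13.96 and 14.05 and then 13.14, 13.45 and 13.1. All 2-week arrays lay below all 5-day arrays, but the difference of -0.75 (SE 0.45) did not pass the test (adjusted p = 0.271). That SE pools the spread within all groups, and the BL10 arrays at 3 weeks read 11.26, 13.38 and 11.39. The 5-day levels lay near 14.11, the highest of any tested gene, and whether that limited the difference was not tested. Igf2r, the clearance receptor of Igf2, was lower by a similar amount with a smaller error (-0.88, SE 0.22, adjusted p = 0.0098). Igf1 differed by -0.33 (SE 0.27, adjusted p = 0.456). Igf2r, Magel2 and Zim1 kept their call in all 6 fits. With 1 array left out the count of lower imprinted genes ranged from 3, without replicate 3 at 5 days, to 10, and it was also 3 without replicate 1 at 2 weeks. It was 13 on the values as deposited and after median centring. Among 27 IGF, growth hormone and myostatin genes 4 were lower (14.8%, against 5.89% of all genes) and 1 was higher (3.7%, against 10.0%). The count of lower genes was 8 on the values as deposited and after median centring, and 1 without replicate 2 or 3 at 5 days. The higher gene was Igfbp5, a binding protein of muscle (0.64, SE 0.19, adjusted p = 0.0285). Igfbp5 lost its call in all 6 fits and, as the mean of its probe sets, differed by -0.17.

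**Figure D3:**
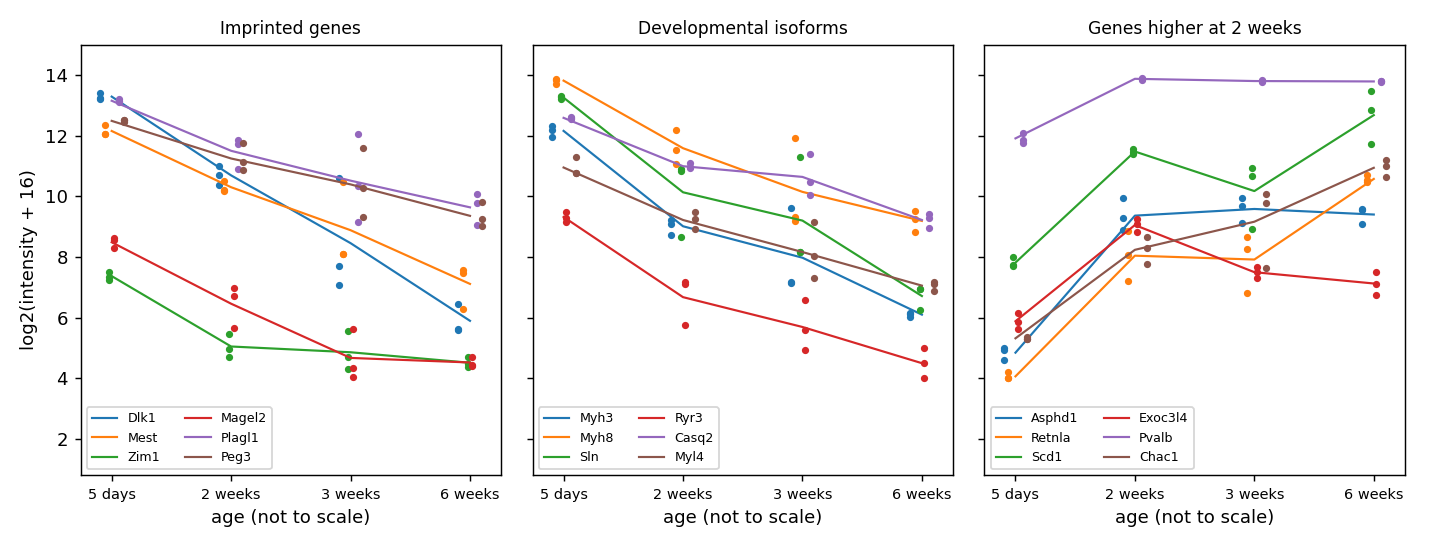
Level (log2 of intensity plus 16, vertical axis) of 18 genes in BL10 quadriceps at 5 days, 2 weeks, 3 weeks and 6 weeks; each point is 1 array and each line joins the means of 3 arrays. Dlk1 and Myh3 go on falling to 5.9 and 6.1 at 6 weeks, whereas the means of Pvalb lie between 13.79 and 13.87 from 2 weeks on and Exoc3l4 comes down from its 2-week level.

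Of 47 extracellular matrix genes tested 10 were lower (21.3%, against 5.89% of all genes) and none higher, the median was -0.53, and in 35 genes all 2-week arrays lay below all 5-day arrays, against 39.6% of all genes without overlap in either direction. Aspn, a small leucine-rich proteoglycan, read 9.77, 9.85 and 10.25 and then 6.32, 7.96 and 8.27 (-2.43, SE 0.47, adjusted p = 0.00183). Fbn2, the fibrillin of developing tissue, read 9.48, 9.55 and 9.99 and then 7.36, 8.09 and 7.1 (-2.15, SE 0.31, adjusted p = 0.000151), and it fell further by 6 weeks (-1.83, adjusted p = 0.000475). Thbs1, a matricellular protein, read 8.55, 8.25 and 8.47 and then 6.37, 6.38 and 7.32 (-1.73, SE 0.37, adjusted p = 0.00353) but was higher again by 1.49 at 6 weeks (adjusted p = 0.00715). Thbs2, Mfap2, Col14a1, Col6a1, Fbln2, Col6a3 and Dcn were lower by 0.51 to 1.39. Aspn, Fbn2 and Thbs1 kept their call in all 6 fits, the count was 3 without replicate 3 at 5 days or replicate 1 at 2 weeks, and it was 17 on the values as deposited. Markers of fibro-adipogenic progenitors, the main matrix-producing cells, did not move together: Thy1 was higher (0.96, SE 0.19, adjusted p = 0.00223), Osr1 (-1.51, SE 0.31, adjusted p = 0.00265) and Dcn were lower, and the mean of the 11 tested markers spanned 9.22 to 9.34 at 5 days and 9.04 to 9.33 at 2 weeks. In whole muscle, fewer cells of a type and less RNA per cell cannot be told apart.

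Some genes that tie the fibre to the matrix were also lower. Itgb1, the beta1 integrin, read 10.28, 10.23 and 10.44 and then 7.22, 8.33 and 9.58 (-1.94, SE 0.41, adjusted p = 0.00325). Sntb1, a syntrophin, read 9.65, 9.63 and 9.79 and then 7.3, 8.66 and 7.03 (-2.03, SE 0.49, adjusted p = 0.00851). The 2-week arrays of both genes differed widely among themselves. Over the 18 genes of the dystrophin complex list 3 were lower (16.7%, against 5.89% of all genes) and none higher, and Itgb1 alone kept its call in all 6 fits. The count ranged from 1, without replicate 1 at 2 weeks, to 5, without replicate 3 at 2 weeks.

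Energy genes were called in both directions. In the respiratory chain, whose members differed by -0.51 to 0.82, 10 of 35 genes were higher (28.6%) and 2 lower (5.71%), with a median of 0.16. The shares of all genes were 10.0% higher and 5.89% lower. On the values as deposited 2 of the 35 were higher and 4 lower with a median of -0.08, so the direction of that list turns with the scaling. Cox7a1, the muscle form of a cytochrome oxidase subunit, read 11.77, 11.87 and 11.77 and then 12.93, 12.52 and 12.42 (0.82, SE 0.18, adjusted p = 0.00371), and Ndufb3, Ndufs3 and Ndufb8 of complex I were higher by 0.44 to 0.64; these 4 kept their call in all 6 fits. Glycolysis and glycogen genes had 5 of 32 higher (15.6%, against 10.0% of all genes) and 1 lower (3.12%, against 5.89%). Pfkfb3, which makes the activator of phosphofructokinase, read 5.73, 5.42 and 5.72 and then 8.62, 8.22 and 8.09 (2.69, SE 0.51, adjusted p = 0.00158). Phkg1 and Phka1, subunits of the kinase that starts glycogen breakdown, were higher by 1.29 (SE 0.26, adjusted p = 0.00275) and 1.08 (SE 0.28, adjusted p = 0.0134), and Gpd1 and the muscle mutase Pgam2 by 0.92 and 0.49. Fat oxidation had 3 of 32 lower, the fatty acid transporter Cd36, Acat1 and Acadm (9.38%, against 5.89% of all genes), and none higher; Acat1 alone kept its call in all 6 fits, Cd36 lost it in 5 and Acadm in 6. Idh2, the mitochondrial isocitrate dehydrogenase that makes NADPH, read 12.03, 12 and 12.04 and then 10.85, 10.56 and 10.69 (-1.32, SE 0.26, adjusted p = 0.00196), and myoglobin Mb was higher by 1.07 (SE 0.33, adjusted p = 0.0317); these were the called members among 25 TCA cycle and energy transfer genes. Idh2 kept its call in all 6 fits, whereas Mb lost it in 5 (adjusted p up to 0.121) and on the values as deposited (0.82, adjusted p = 0.116). Each was 4% of that list, against 5.89% of all genes lower and 10.0% higher.

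Lists of hormonal and daily control had shares of higher genes not far from the 10.0% of all genes: 2 of 11 on the thyroid list (18.2%), 2 of 17 on the circadian list (11.8%) and 3 of 23 on the atrophy and glucocorticoid list (13%). The called thyroid genes were Hr and Klf9, both induced by thyroid hormone. Hr read 5.14, 5.3 and 4.95 and then 6.64, 6.82 and 7.75 (1.94, SE 0.4, adjusted p = 0.003), and Klf9 read 10.66, 10.42 and 10.4 and then 11.45, 11.83 and 11.88 (1.23, SE 0.29, adjusted p = 0.00793). Both kept their call in all 6 fits and rose further by 6 weeks, by 1.31 and 0.87 (adjusted p = 0.0243 and 0.0388). The called circadian genes were Dbp (1.81, SE 0.49, adjusted p = 0.0149) and Per2 (1.18, SE 0.32, adjusted p = 0.015); neither kept its call in all 6 fits, and both lost it without replicate 3 at 5 days and without replicate 1 at 2 weeks; the hour of collection is not given in the labels. Sgk1 (1.52, SE 0.36, adjusted p = 0.00736) and Ddit4 (2.4, SE 0.7, adjusted p = 0.0232), both induced by glucocorticoids, were higher, while 1 gene of that list was lower. Ddit4 lost its call in 5 of the 6 fits (adjusted p up to 0.0976), and the count of higher genes was 1 in those 5.

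Of 39 cell cycle genes 2 were lower (5.13%, near the 5.89% of all genes), the replication helicase subunit Mcm6 (-1.03, SE 0.31, adjusted p = 0.0292) and Ccne2 (-0.79, SE 0.2, adjusted p = 0.0101), none was higher, and the median was -0.22. Neither was called without replicate 3 at 5 days or without replicate 1 at 2 weeks. From 2 to 6 weeks 20 of the same 39 were lower; both comparisons share the 2-week arrays and their difference was not tested. Of 14 oncofetal RNA-binding and chromatin genes none was called by limma, with 3 at an unadjusted p under 0.05. Muscle splicing factors had 4 of 14 lower (28.6%, against 5.89% of all genes) and none higher. The 4 were Srsf10, the polypyrimidine tract proteins Ptbp2 and Ptbp1, and Qk, at -1.14 to -0.71. None of them kept its call in all 6 fits, and the count of lower genes was 0 without replicate 3 at 5 days or replicate 1 at 2 weeks. Among myogenic factors Cdh15, the M-cadherin of satellite cells, read 8.91, 8.75 and 8.79 and then 7.88, 7.77 and 8.19 (-0.87, SE 0.21, adjusted p = 0.00793). That list had 3 of 27 lower (11.1%) and 1 higher (3.7%), and the 10 satellite cell markers had 2 lower (20%). The shares of all genes were 5.89% lower and 10.0% higher. Cdh15 alone kept its call in all 6 fits in either list.

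**Figure D4:**
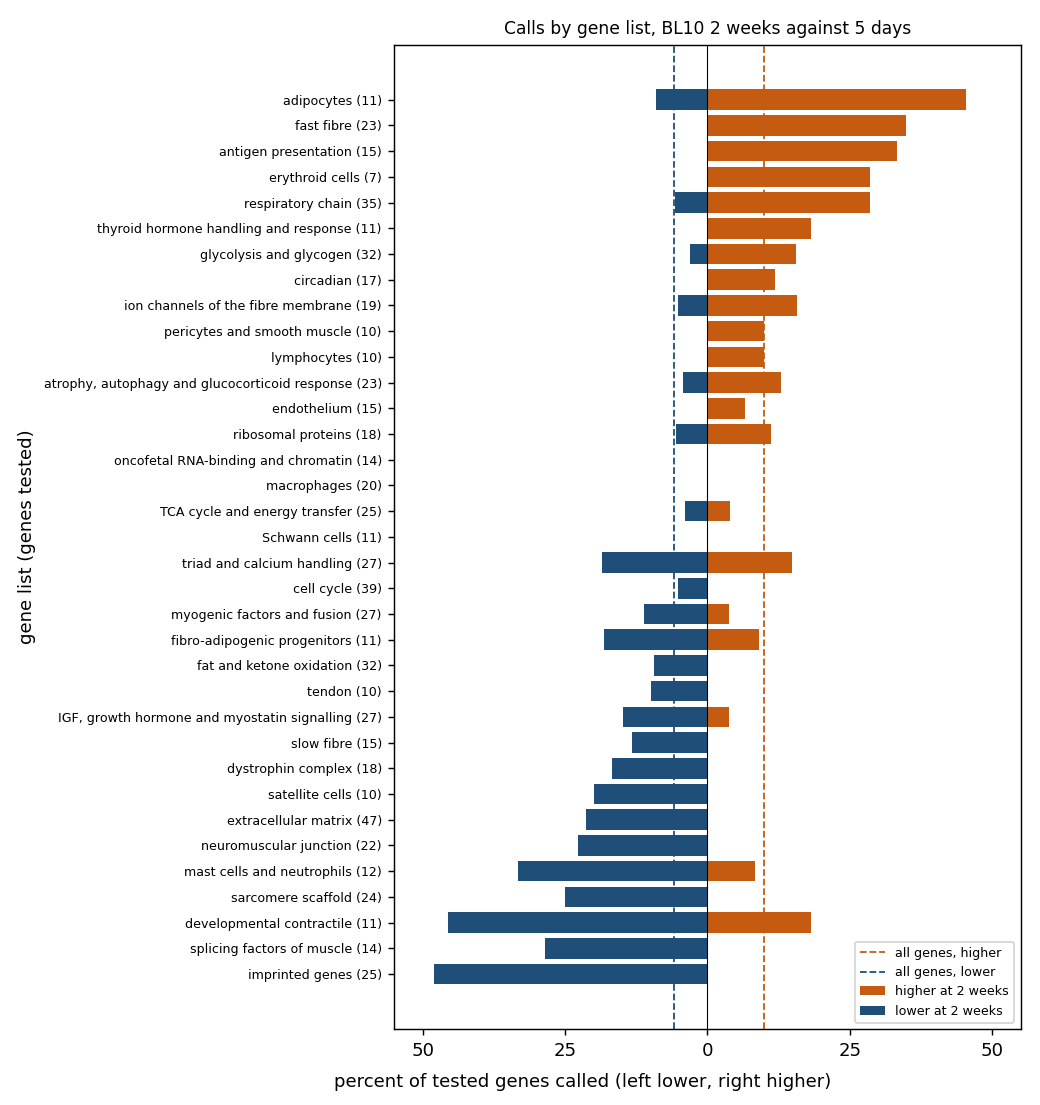
Share of each gene list's tested members called lower (blue, to the left) or higher (orange, to the right) at 2 weeks, in percent, with the number tested in brackets and dashed lines at the shares of all genes, 5.89% lower and 10.0% higher. Imprinted genes (48% lower) lie at the bottom and adipocyte genes (45.5% higher) at the top; these shares hold for the fit to all 24 arrays.

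Ucp1, the uncoupling protein of brown and beige fat, had the largest difference of all genes tested. It read 6.35, 4.82 and 4.32 at 5 days and 12.54, 10.29 and 10.59 at 2 weeks, a difference of 5.98 (SE 1.8, adjusted p = 0.0282). The highest value came from replicate 1 at 2 weeks, the array that stood apart; over the 6 fits the difference lay between 5.28 and 6.57, and the call was lost without that array and without replicate 2 or 3 at 5 days (adjusted p up to 0.12). Retn, the fat hormone resistin, read 5.78, 5.01 and 5.96 and then 8.84, 9.43 and 7.9 (3.14, SE 0.74, adjusted p = 0.00736) and kept its call in all 6 fits. Adipoq, adiponectin, read 8.89, 7.79 and 8.57 and then 11.87, 11.64 and 10.18 (2.81, SE 0.83, adjusted p = 0.0256). Cidec, a lipid droplet protein, was higher by 2.6 (SE 0.86, adjusted p = 0.0427) and leptin, Lep, by 1.79 (SE 0.55, adjusted p = 0.0319). Car3, which fibres also express, was lower (-0.66, SE 0.17, adjusted p = 0.0134).

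Of 14 adipocyte markers 11 were tested, 5 were higher (45.5%, against 10.0% of all genes) and 1 lower (9.09%, against 5.89%), and the median was 2.6. The mean over the 11 was 8.16, 7.59 and 7.72 in the 5-day arrays and 10.53, 9.83 and 9.38 in the 2-week arrays, so the ages did not overlap. The count of higher members was 1 without replicate 2 or 3 at 5 days and without replicate 1 at 2 weeks. Fabp4, which capillaries share with fat, was high in every array, from 12.78 to 13.56. Scd1, the desaturase that makes monounsaturated fatty acids, read 8.01, 7.75 and 7.69 and then 11.47, 11.55 and 11.41 (3.66, SE 0.54, adjusted p = 2e-04), with no call for the second of its 2 probe sets. The part that adipose tissue taken along with the muscle had in these values was not tested.

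**Figure D5:**
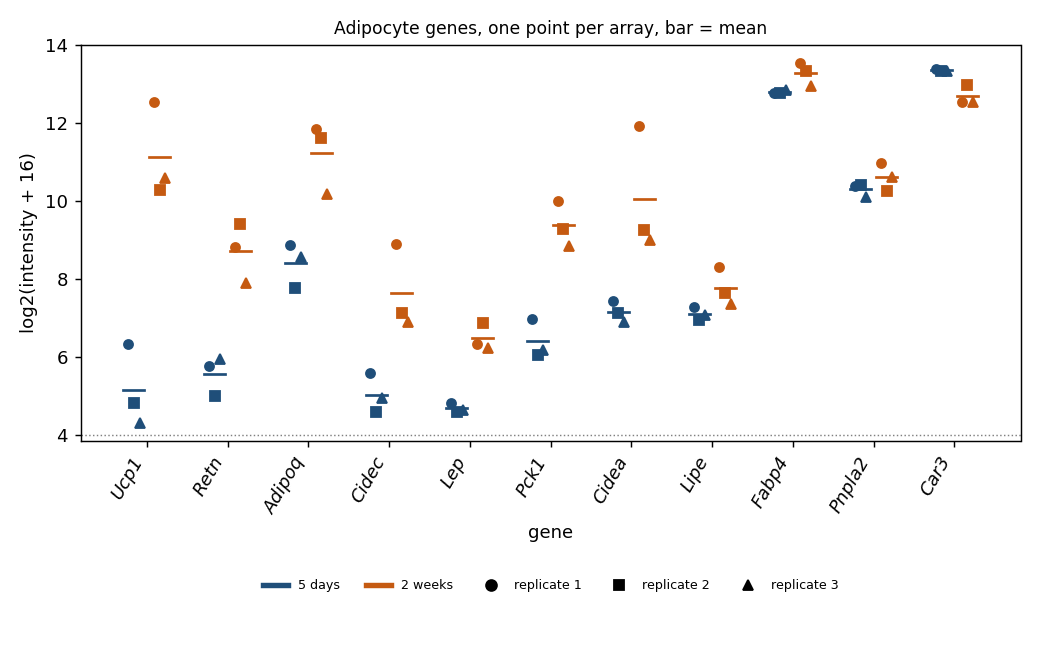
Level of the 11 adipocyte markers tested (log2 of intensity plus 16, vertical axis) in each BL10 array, 5 days in blue and 2 weeks in orange, marker shape for the replicate, bar for the mean of 3 and dotted line for the floor of 4. Ucp1, Retn, Adipoq, Cidec and Lep show no overlap between ages, and replicate 1 at 2 weeks is highest for Ucp1 at 12.54.

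Blood and immune genes moved in separate directions. Mast cell proteases were lower: Cma1 read 9.1, 8.99 and 9.23 and then 8.1, 8.17 and 6.86 (-1.39, SE 0.31, adjusted p = 0.00519), and Cpa3, Mcpt4 and Tpsb2 were lower by 1.62 to 1.7. Cma1, Cpa3 and Tpsb2 kept their call in all 6 fits, whereas Mcpt4 lost it in 5 (adjusted p up to 0.119). The list of mast cell and neutrophil genes had 4 of 12 lower (33.3%, against 5.89% of all genes) and 1 higher (8.33%, against 10.0%). Of the neutrophil genes on the same list Elane, neutrophil elastase, was higher by 0.91 (SE 0.19, adjusted p = 0.00365), while S100a9 did not pass the test: it read 5.94, 6.82 and 5.44 and then 10.35, 10.38 and 6.57 (3.04, SE 1.17, adjusted p = 0.0821), so replicates 1 and 2 at 2 weeks were high and replicate 3 was near the 5-day arrays. Antigen presentation had 5 of 15 higher (33.3%, against 10.0% of all genes) and none lower; the count was 2 without replicate 1 at 2 weeks and 3 without replicate 3 at 5 days, and Cd74 and H2-Aa alone kept their call in all 6 fits. Cd74, the invariant chain of class II molecules, read 6.39, 6.21 and 6.33 and then 8.58, 8.22 and 7.33 (1.74, SE 0.31, adjusted p = 0.000917), and H2-Aa read 5.57, 5.45 and 5.43 and then 7.82, 7.23 and 6.31 (1.64, SE 0.34, adjusted p = 0.00313); both rose further to 6 weeks, by 2.13 and 2.77 (adjusted p = 0.000133 and 2.78e-05). None of 20 macrophage markers was called by limma, with 1 at an unadjusted p under 0.05, and none of 11 Schwann cell markers, again with 1. Among 10 lymphocyte genes 1 was higher (10%, against 10.0% of all genes), Ighm, the IgM heavy chain of B cells (1.52, SE 0.4, adjusted p = 0.0136). Ighm lost its call without replicate 3 at 5 days and without replicate 2 at 2 weeks (adjusted p up to 0.0558). Of 7 erythroid genes 2 were higher (28.6%, against 10.0% of all genes), the red cell anion exchanger Slc4a1 (1.73, SE 0.23, adjusted p = 7.9e-05) and Hba-a1. Hba-a1 read only 5.87, 6.4 and 6.09 and then 6.93, 7 and 7.07. Before normalization the median over probe sets was 6.08 to 6.11 in these arrays. Vwf was higher among 15 endothelial genes (6.67%) and Acta2 among 10 pericyte and smooth muscle genes (10%), shares no larger than the 10.0% of all genes, and each lost its call in 5 of the 6 fits and on the values as deposited. Tendon markers had 1 of 10 lower (10%), and ion channels of the fibre membrane 3 of 19 higher (15.8%) and 1 lower (5.26%). The shares of all genes were 10.0% higher and 5.89% lower. Ribosomal proteins had 2 of 18 higher (11.1%) and 1 lower (5.56%), with a median of -0.05. On the values as deposited and after median centring 0 of them were higher and 6 lower, so the direction of the calls turns with the scaling. Neither higher gene kept its call in all 6 fits.

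The 15 highest and 15 lowest called genes whose arrays did not overlap held several genes outside these lists. Asphd1 read 4.62, 4.92 and 5 at 5 days and 9.28, 8.88 and 9.93 at 2 weeks (4.51, SE 0.36, adjusted p = 5e-07), and from 2 to 6 weeks it differed by 0.04 (adjusted p = 0.956). Retnla, a secreted resistin-like protein, read 4.2, 4 and 4 and then 8.06, 8.85 and 7.22 (3.98, SE 0.39, adjusted p = 2.72e-06); 2 of its 5-day arrays were at the floor. Tnfaip2, a protein induced by tumour necrosis factor, was higher by 3.11 (SE 0.3, adjusted p = 2.59e-06), Chac1, a glutathione-degrading enzyme of the stress response, by 2.91 (SE 0.67, adjusted p = 0.00629) and haptoglobin, Hp, by 3.02 (SE 0.69, adjusted p = 0.00573). Exoc3l4 read 6.16, 5.85 and 5.64 and then 9.09, 8.83 and 9.24 (3.17, SE 0.42, adjusted p = 6.8e-05) and came down again by 1.93 to 6 weeks (adjusted p = 0.00344). Ces1d, 9930021J03Rik, Wfdc21, Cyp4f15, Mrap and Nobox were the rest of the highest, at 3.03 to 3.88.

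At the low end Ang4, a secreted ribonuclease, read 11.18, 11.28 and 11.58 and then 4, 8.52 and 9.73, a difference of -3.93 (SE 0.94, adjusted p = 0.0076). Replicate 1 at 2 weeks was at the floor, and without it the difference was -2.23. Prokr1, a prokineticin receptor, read 8.35, 8.25 and 8.06 and then 4.24, 5.44 and 5.17 (-3.27, SE 0.34, adjusted p = 4.71e-06), with no call for the second of its 2 probe sets. Agtr2, the type 2 angiotensin receptor that is abundant in fetal tissue, read 10.18, 10.16 and 10.33 and then 6.42, 7.64 and 6.94 (-3.23, SE 0.5, adjusted p = 0.000297), and it fell by a further 2.46 to 6 weeks (adjusted p = 0.00197). Scn3b, a sodium channel subunit, read 9.42, 9.47 and 9.79 and then 7.02, 6.96 and 6.24 (-2.82, SE 0.5, adjusted p = 0.000981), with both probe sets lower. Tecrl, Rundc3a, Igsf1, Rbpjl, Fndc3c1, H3f3b, B3gat1 and Bcam were lower by 2.64 to 3.1. Of these 30 genes 26 kept their call in all 6 fits, and Ucp1, Ces1d, Mrap and Sln did not. Of the 10 with more than 1 probe set tested, every probe set was called the same way in 5.

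Between 2 and 6 weeks 1870 genes were higher (12.5%) and 1356 lower (9.04%). Of the 15 lowest genes 5 fell again and none rose, and of the 15 highest 2 rose again (Retnla and Chac1) and 1 fell (Exoc3l4). Over all genes called here, 126 of the 1503 higher genes rose again and 234 fell, while 93 of the 883 lower genes fell again and 159 rose; both comparisons share the 2-week arrays, so these counts do not show that changes were continued or turned back. In mdx the difference between 2 weeks and 5 days was below 0 for 15 of the 15 lowest genes and above 0 for 14 of the 15 highest. The difference of the change between mdx and BL10 was called in 28 genes (0.187%), and among the 30 leading genes in 1, Cyp4f15.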

How the data were processed

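The authors deposited 1 table of linear PLIER signal intensities for 24 arrays, 8 groups of 3; PLIER is named in the submitters' processing notes, its settings and version are not given in the sources used here. Of 45101 probe sets, 64 controls were left out; 34945 of the rest had 1 gene symbol, 932 several and 9160 none. Negative intensities were set to 0, arrays were quantile normalized, 16 was added and log2 taken. Each gene took the values of its brightest probe set on average, and was tested if above the 40th percentile of its array on at least 3 arrays. limma 3.58.1 (R 4.3.3) fitted 8 group means to all 24 arrays with an intensity trend, with Benjamini-Hochberg adjustment over 15000 genes. Its code was tested on simulated data. An exact permutation test of 3 against 3 arrays cannot go below p = 0.1. Intensities carry no count depth, and the number of arrays limits the precision.

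Named genes were the 15 highest and 15 lowest called genes without overlap, called members of 35 gene lists of up to 48 genes, members of 28 gene pairs, and Dmd, Xist and Eif2s3y. The comparison and the lists were chosen with earlier results of these data known. Alternatives covered scaling, the added constant, filters, probe set choice, array weights, the arrays fitted, the replicate number as a block and leaving out each array. Promoters are the 250 bases before the start in RefSeq, GRCm38.p6. Figures were drawn with matplotlib 3.10.9 in Python 3.11.15.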

Additional observations from a re-analysis of the deposited data

Results flagged for a closer look

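The change from 5 days to 2 weeks differed between mdx and BL10, by limma's test of that difference over all genes, in 8 of the genes named or listed. Rpl3l, the muscle form of a ribosomal protein, rose by 0.81 in BL10 and differed by 3.08 in mdx, a difference of 2.26 (SE 0.33, adjusted p = 0.00592). The fast myosin Myh4 rose by 0.78 and differed by 2.9 in mdx (difference 2.12, SE 0.37, adjusted p = 0.0227), and the sodium channel subunit Scn4b by 0.96 and 2.74 (difference 1.77, SE 0.34, adjusted p = 0.0337). The water channel Aqp4 differed by -0.3 in BL10, where it was not called, and by 2.39 in mdx (difference 2.69, SE 0.45, adjusted p = 0.0169). The mitochondrial creatine kinase Ckmt2 differed by -0.09 and 0.77 (difference 0.86, SE 0.17, adjusted p = 0.0338) and Rgs5, a pericyte gene, by 0.05 and 1.44 (difference 1.39, SE 0.27, adjusted p = 0.0337). Cyp4f15 rose by 3.3 in BL10 and differed by 0.17 in mdx (difference -3.13, SE 0.61, adjusted p = 0.0337), and Igfbp2 differed by -0.6 and -2.22 (difference -1.62, SE 0.34, adjusted p = 0.0477).

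Replicate 3 of mdx at 2 weeks had a Dmd level of 10.31 against 7.73 and 8.33 in its group, and without it only Aqp4 (adjusted p = 0.0375) and Rpl3l (adjusted p = 0.0196) of the 8 stayed under 0.05. Without replicate 1 of BL10 at 2 weeks only Rpl3l did (adjusted p = 0.0293), and without the 5 arrays whose Dmd went against the label none did, the lowest being 0.0852 for Aqp4 and Rpl3l. What set these differences was not tested.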

How the results depend on the processing

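The 2386 calls between 2 weeks and 5 days became 4961 with every probe set tested, 4705 with array weights, 792 at 2-fold or more, 953 at an adjusted p under 0.01, and 1213 without replicate 1 at 2 and at 3 weeks, a setting chosen after seeing the data; with 1 array left out they ranged from 1039 to 2837. The 28 calls for the difference between mdx and BL10 became 45 on the values as deposited and with a 60th percentile filter, 67 with every probe set, 235 with array weights, 3 with the arrays of that comparison only, 2 without the 5 arrays whose Dmd went against the label, 4 at an adjusted p under 0.01 and 7 under the added setting; leaving out 1 array gave 4 to 491. The 3226 calls between 6 and 2 weeks became 7630, 5172, 1137, 1470 and 1843 in the order of the first sentence, and 1607 to 3735 with 1 array left out. The replicate numbers did not pair the arrays (correlations of deviations -0.08, -0.09 and -0.11); with the replicate block the counts were 2598, 40 and 3428. Differences changed sign as follows: Prokr1 to 0.15 with 1 added, where another probe set represents it; Atp5a1 to 0.23, Igfbp5 to -0.17, Myh1 to 0.27 and Rgs5 to -0.21 as the mean of probe sets; Rgs5 to -0.21 on the values as deposited and -0.2 after median centring; Ryr1 to 0.01 with array weights; and Dmd to 0.08, Myh1 to 0.03 and Ryr1 to 0.12 under the added setting. With 1 array left out Chrne ranged from -0.01 to 0.61, Myh1 from -0.2 to 0.03, Dmd from -0.37 to 0.08, Ryr1 from -0.15 to 0.12 and Rgs5 from -0.04 to 0.16. Except for Prokr1 the causes were not tested. Genes near the floor of 4 have only a limited range for a decrease.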

Other observations

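Genes of the X chromosome were common among the strongest decreases, a pattern noticed after the values were seen and not tested. Of the 12005 tested genes with a promoter entry 406 lay on the X chromosome (3.38%). The share was 2.26% among genes called higher (28 of 1240), 6.33% among genes called lower (44 of 695) and 11.8% among those lower by at least 2-fold (29 of 246). Of the 50 lowest genes 10 were X-linked, and of the 50 highest 0. They included Agtr2, Igsf1 and Fndc3c1, named above, and Nrk, a kinase of embryonic muscle, which read 11.37, 11.42 and 11.85 at 5 days and 8.88, 9.92 and 9.2 at 2 weeks (-2.21, SE 0.42, adjusted p = 0.00155). Capn6, a calpain without protease activity, read 11.25, 11.35 and 11.6 and then 8.79, 9.47 and 9.4 (-2.18, SE 0.28, adjusted p = 6.09e-05). The array at 5 days with high Xist read 11.37 for Nrk and 11.25 for Capn6, the lowest of the 5-day arrays for both genes. X-linked genes differed in this: the same array was the highest of the 5-day arrays for Gprasp1 (9.75), Rps6ka6 (7.61), Armcx4 (9.75) and Gprasp2 (6.69). It lay between the other 5-day arrays for Agtr2 (10.18) and Fndc3c1 (9.83). The part that sex had in these values was not tested.

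Outside the lists, and also named after its value was seen, Myhas, an RNA of the fast myosin cluster, read 7.99, 8.01 and 8.34 and then 11.92, 9.64 and 8.98 (2.07, adjusted p = 0.0139); without replicate 1 at 2 weeks the difference was 1.2 (adjusted p = 0.114). Pparg, the regulator of fat cell formation, was higher by 2.01 (adjusted p = 0.0404), a call lost in 5 of the 6 fits that left out 1 array (adjusted p up to 0.198).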
